A study of Mus musculus with 6 samples.

Results

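Chemokine ligand genes encode small secreted or membrane-anchored proteins that guide leukocytes. They were read out of whole-islet RNA from mice in which Cre recombinase from the glucagon gene acts in alpha cells. Members were the genes of the table whose symbol is Ccl, Cxcl, Cx3cl or Xcl followed by a number, with an optional letter. The table of 55536 genes held 45 such entries, and the 27 with at least 10 counts summed over all libraries are described here. Control mice were Klf4+/+;Gcg-iCre and knockout mice Klf4fl/fl;Gcg-iCre, with 3 libraries of each and the Cre driver present in both. The strain is written C57B1/6J in the design text, and neither age nor sex is among the labels used here. Klf4 encodes a zinc finger transcription factor, and the comparison asks which islet transcripts differ when it is deleted in alpha cells.

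Islets are clusters of hormone cells, with beta cells making insulin and alpha cells making glucagon, supplied by capillaries and housing resident macrophages and fibroblasts. Chemokines act on G protein-coupled receptors of immune and stromal cells. Some are made constitutively and place cells within tissues, such as Cxcl12. Others are induced by inflammatory cytokines through NF-kappaB or by interferons, such as Cxcl1, Ccl2 and Cxcl10. In islets, cytokine-induced chemokines are best known from the leukocyte infiltration of autoimmune diabetes.

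The families are named by the spacing of the first cysteines of the mature protein, and this spacing can be read in the coding sequence. It is shown for the 5 members with the highest level per kilobase, because they include all 3 spacings found among the 27. Cysteine codons are in capitals, and the bases are in the coding direction, 5′ to 3′ (GENCODE M21 transcripts, GRCm38).
Cx3cl1, chr8:94778039-94778077, plus strand: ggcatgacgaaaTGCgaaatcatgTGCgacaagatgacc
Ccl28, chr13:119645880-119645909, plus strand: atggcctccagcTGTTGCactgaggtgtct
Cxcl16, chr11:70459115-70459147, minus strand: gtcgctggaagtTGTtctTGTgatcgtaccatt
Cxcl12, chr6:117171496-117171528, plus strand: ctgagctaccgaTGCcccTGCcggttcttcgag
Ccl11, chr11:82061684-82061713, plus strand: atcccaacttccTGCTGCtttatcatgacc
The stretch of Cx3cl1, the only CX3C ligand, has 3 codons between its cysteine codons. Cxcl16 and Cxcl12 have 1, and in Ccl28 and Ccl11 the cysteine codons are adjacent.

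Library totals ran from 101277200 to 110243918 counts. Of values between 1 and 20 counts, 84.3% to 87.3% in each library were even numbers, as were 87.5% of the 144 member values above 0. Whether the reads of a pair were counted one by one was not tested, and a sampling interval that takes each count as a separate molecule would then be too narrow. A count of 0 allows up to 3 counts, or 0.0272 to 0.0296 CPM, for counting error only. If the reads of a pair were counted one by one, it allows up to 6 counts, or 0.0544 to 0.0592 CPM. Control replicates 1 to 3 held 3148, 2879 and 2015 normalized counts of Klf4 itself, and knockout replicates 2340, 2540 and 2277 (DESeq2 log2 fold change -0.17 ± 0.15 SE, adjusted p = 0.774). Whole-islet counts of Klf4 therefore did not separate the genotypes, and groups are called as labelled. Xist, which marks the inactive X chromosome, was at 77938 to 108105 normalized counts in controls and at 12.4 to 30.2 in knockouts, while the Y-linked gene Ddx3y had 0 counts in every control and 5599 to 6265 in knockouts. Sex and genotype cannot be told apart in any result below.

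Few ligands supplied most of the signal. Levels of different genes were compared as normalized counts per kilobase of annotated exon. On this scale Cx3cl1, Ccl28 and Cxcl16 made up 60.8% of the sum over the 27 members and the leading 8 made up 87.6%. Cx3cl1 was first, at a mean of 889 per kilobase (762 to 1067 over the 6 libraries), followed by Ccl28 at 508 (324 to 1116), Cxcl16 at 316 (269 to 341) and Cxcl12 at 235 (205 to 319). Next came Ccl11 at 214, Ccl27a at 124, Cxcl14 at 119, Ccl6 at 63.9 and Cxcl13 at 50.7 per kilobase. The ranges of neighbours in this order overlapped at every step from Cx3cl1 down to Cxcl14. For the first 3 steps the overlap rested on 1 library each: it ended without knockout replicate 3 (Cx3cl1 and Ccl28), control replicate 3 (Ccl28 and Cxcl16) or control replicate 2 (Cxcl16 and Cxcl12). The steps from Cxcl12 to Cxcl14 overlapped whichever library was left out. The ranges of Cxcl14 and Ccl6 did not overlap. The other 18 members lay between 0.994 and 46.0 per kilobase, and 9 of the 27 had 0 counts in at least 1 library.

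**Figure D1:**
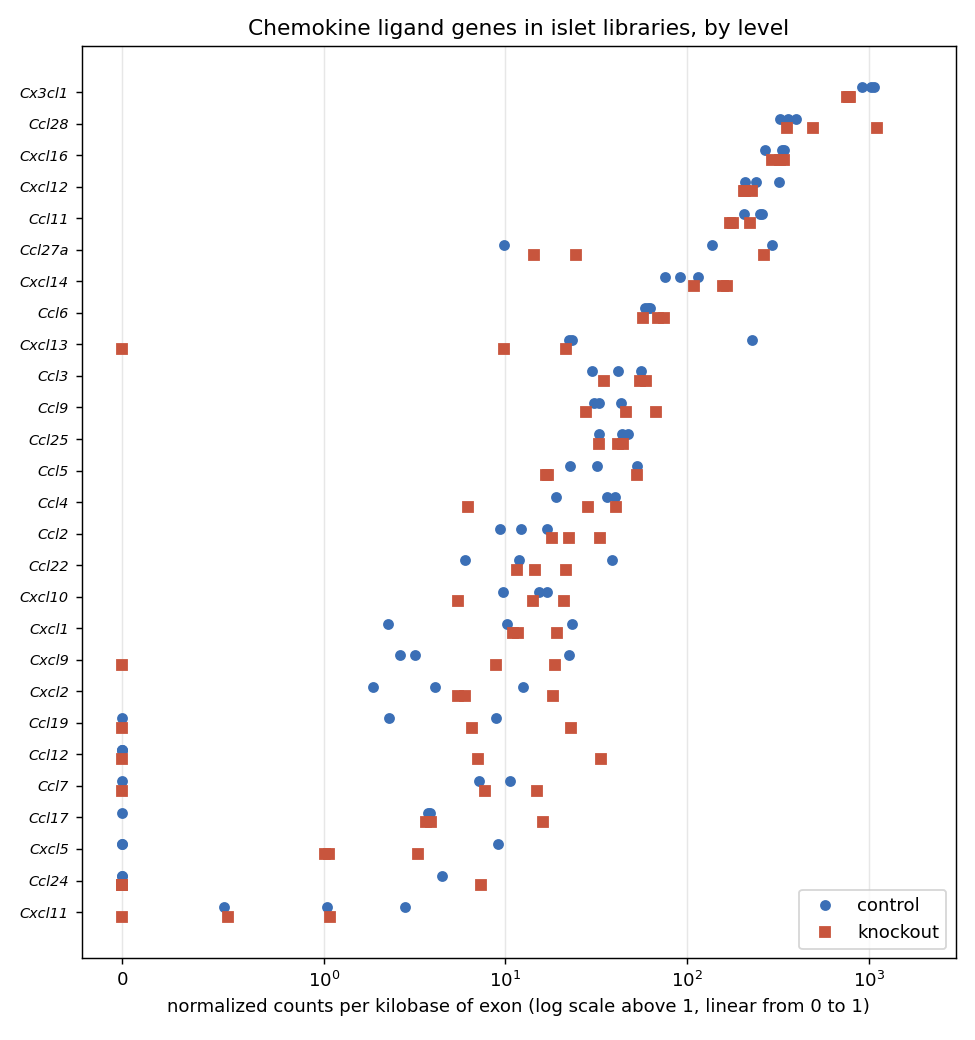
Level of each of the 27 chemokine ligand genes in each library, in normalized counts per kilobase of exon on an axis that is logarithmic above 1 and linear from 0 to 1. Circles are control and squares knockout libraries, and genes are ordered by mean level from Cx3cl1 at 889 down to Cxcl11 at 0.994.

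Of the 4 leading members, Ccl28, Cxcl16 and Cxcl12 each stand alone in the genome, away from the clusters that hold most inflammatory chemokines. When genes within 500 kb were joined, the 38 member entries on assembled chromosomes fell into 16 loci, and 7 further entries lay on unplaced scaffolds. On chromosome 5, the 3 measured genes of the Cxcl1, Cxcl2 and Cxcl5 cluster (90759360 to 90905938) carried 0.830% of the summed level per kilobase. The neighbouring cluster of Cxcl9, Cxcl10 and Cxcl11 (92321347 to 92365485) carried 0.855%. On chromosome 11, the cluster of Ccl5, Ccl9, Ccl6, Ccl3 and Ccl4 (83525778 to 83664683) carried 7.53% and that of Ccl2, Ccl7, Ccl11 and Ccl12 (82035571 to 82305690) carried 8.74%, of which Ccl11 was most. Cx3cl1 sits on chromosome 8 between Ccl22 and Ccl17 (94745590 to 94812036), and the other 2 genes of that locus had 17.4 and 5.20 normalized counts per kilobase.

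Across genotypes, 1 of the 27 members passed an adjusted p of 0.05 in DESeq2, and it was lower in the knockout libraries. Only 18 members had counts high enough to be given an adjusted p. In the whole table, 2.19% of the genes given one passed, 1.53% higher and 0.657% lower. Fitted log2 fold changes were above 0 for 14 members and below 0 for 13, with a median of 0.02, against -0.0018 over all genes fitted. That median is the value of Cxcl16. It was the same when Ccl12, at 0 in every control, was set to its bound against 3 counts. Ccl12 stays above the median there, so the check could not have moved it. The edgeR quasi-likelihood test called 0 members. An unadjusted p under 0.05 was reached by 5 members in edgeR and by 3 in DESeq2, against 9.48% and 9.03% of all genes. In edgeR 0.115% of all genes passed.

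**Figure D2:**
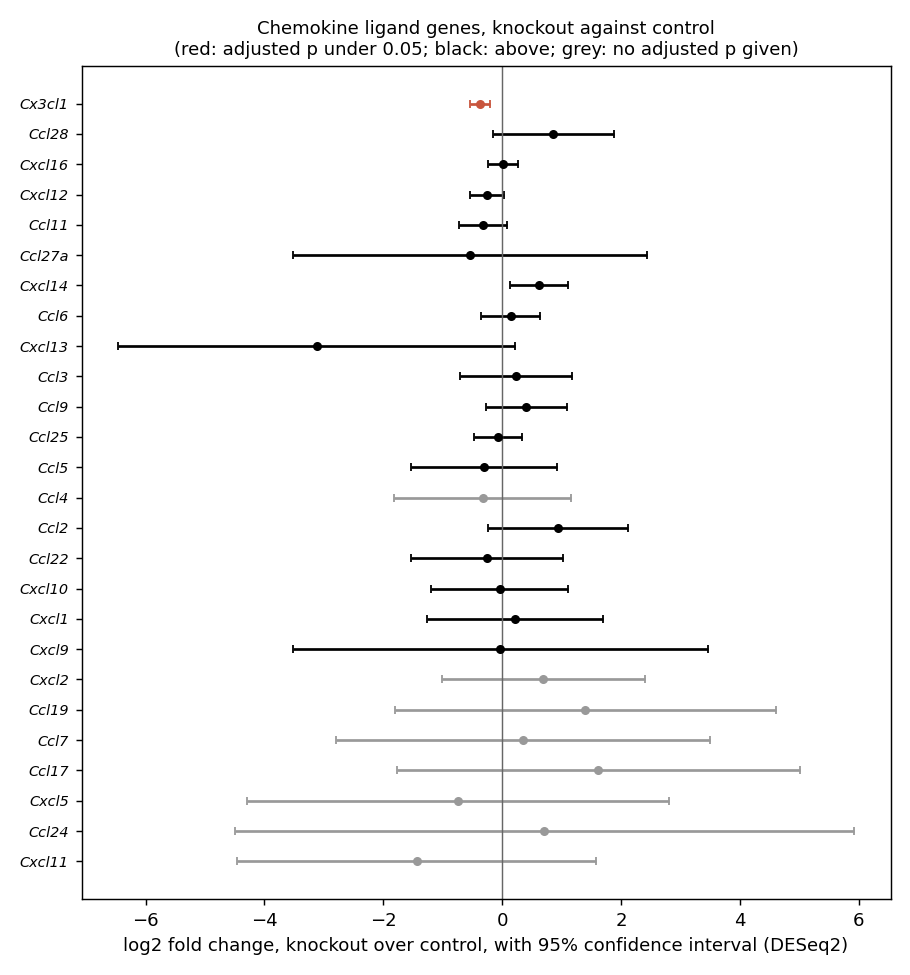
Log2 fold change of knockout over control for 26 members (Ccl12, at 0 in every control, is left out), with its 95% confidence interval from DESeq2, in the order of level. Cx3cl1, in red at -0.37, is the member past the threshold, while grey members such as Cxcl11 had too few counts to be given an adjusted p.

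Cx3cl1 encodes fractalkine, which is made with a mucin-like stalk and a membrane anchor, holds CX3CR1-bearing cells in place and can be shed by proteases. It has been studied in islets as a signal to beta cells as well as to macrophages. Cx3cl1 (ENSMUSG00000031778, chromosome 8, 94772009 to 94782427, plus strand, 6 merged exons of 3930 bases) had 4029, 4193 and 3593 normalized counts in the 3 control libraries (replicates 1 to 3 in order, as in all such triplets here). The knockout libraries held 2996, 3038 and 3111. All 3 knockout libraries lay below the lowest control. They spanned only 1.04-fold among themselves, against 1.17-fold among controls. The means of 3938 ± 310 and 3049 ± 58.5 (SD, n = 3 each) gave a DESeq2 log2 fold change of -0.37 ± 0.087 (SE) with an adjusted p of 0.00257. As a percent change this is -22.6%, with a 95% confidence interval from -31.2% to -12.9%. Of the 389 genes called in the whole table, 86 had a smaller absolute log2 fold change. The size of the fall hardly moved with the test, at -0.37 in edgeR, but the edgeR adjusted p was 0.172. Without knockout replicate 1 the log2 fold change was -0.36 and the DESeq2 adjusted p 0.0718. No annotated gene overlaps Cx3cl1.

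In whole-islet RNA, fewer cells of a type and less RNA per cell cannot be told apart. Beside Cx3cl1, summed markers of alpha cells (Gcg, Irx2, Slc7a2 and Ttr) ran from 3031479 to 3731097 normalized counts in knockouts and from 4097135 to 5901334 in controls, and 3 of these 4 genes fell in DESeq2 (Gcg, Irx2 and Ttr), with 0 called by edgeR. Those of beta cells ran from 19268771 to 19482135 in knockouts and from 17280607 to 20032772 in controls, almost all of it Ins1 and Ins2. Of the 6 beta-cell genes, DESeq2 called Nkx6-1, lower, and edgeR 0. In DESeq2 4 were at an unadjusted p under 0.05, all of them with lower estimates. DESeq2 and edgeR called none of 8 endothelial genes, with 1 at an unadjusted p under 0.05 in each (sums of 99089 to 113895 in knockouts and 91994 to 106904 in controls). Fibroblast markers were higher, at 90438 to 97229 against 45917 to 61531, with 5 of 6 genes risen in DESeq2 and 3 in edgeR. Duct markers summed to 33264 to 37909 against 28323 to 31702, with 1 of 6 risen in DESeq2 and 0 in edgeR, and acinar markers to 1017318 to 1450377 against 404008 to 809338, with 0 of 6 called by DESeq2 or edgeR and all 6 at an unadjusted p under 0.05 in both. Lymphocyte markers, in which Cd79a made up most of the counts, summed to 1417 to 1449 in knockouts and 1651 to 1764 in controls. Of 4 lymphatic markers, Lyve1, which some macrophages also express, rose in DESeq2 (log2 fold change 0.71, adjusted p = 8.41e-05) and edgeR called 0. Their sums were 16136 to 18479 in knockouts and 17840 to 19769 in controls, mostly Prox1, which was lower in every knockout than in every control and not called. DESeq2 and edgeR called none of 5 pericyte genes, with 2 (DESeq2) and 3 (edgeR) at an unadjusted p under 0.05. Estimates were higher for 2 of them and lower for 3, and their sums were 37259 to 42833 in knockouts and 39673 to 44967 in controls. Of the delta-cell, dendritic and neutrophil genes, 0 were called or at an unadjusted p under 0.05 in DESeq2 or edgeR. The part of cell make-up in the Cx3cl1 difference was not tested.

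**Figure D3:**
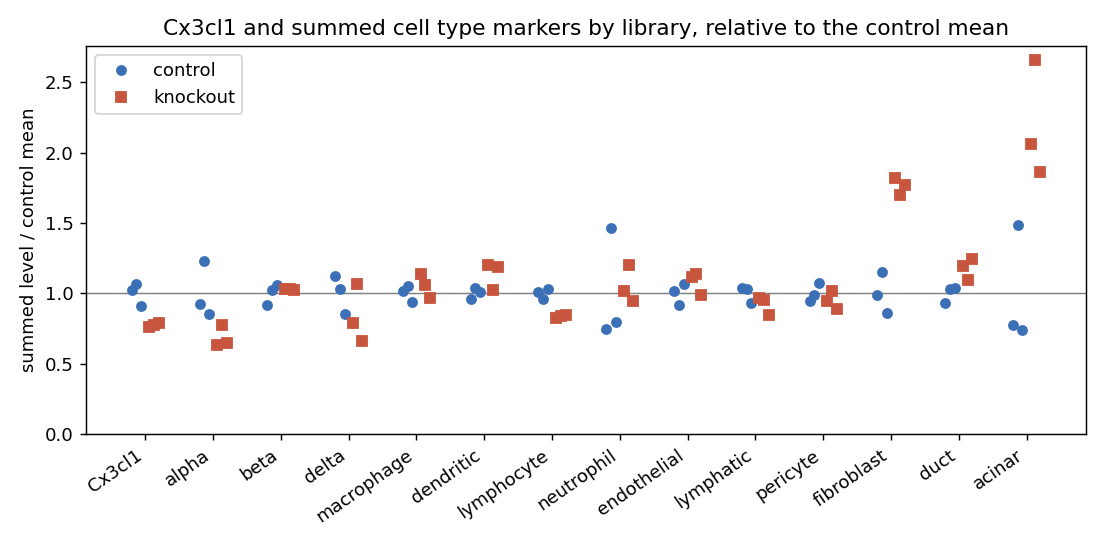
Cx3cl1 and the summed normalized counts of each cell type marker list in each library, divided by the mean of the 3 controls (circles control, squares knockout). Cx3cl1 and the alpha-cell and lymphocyte sums are below every control in all 3 knockout libraries, and the fibroblast, acinar and duct sums are above every control.

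Cx3cr1, which marks macrophages in islets, was at 526, 595 and 700 normalized counts in controls and at 790, 662 and 752 in knockouts. One knockout library lay inside the control range, and the difference was not called (log2 fold change 0.28 ± 0.15 SE, DESeq2 adjusted p = 0.479). Its 95% interval ran from -0.97% to 48.1%. Macrophage markers summed to 11370 to 12723 in controls and 11767 to 13797 in knockouts, and DESeq2 called 4 of 10, all of them higher (Cd68, C1qb, C1qc and Mrc1), and edgeR 0. C1qa, the gene with the most counts in that sum, had an estimate of the opposite sign and was not called (log2 fold change -0.27, DESeq2 adjusted p = 0.348). Adam10 and Adam17, proteases that shed fractalkine and the Cxcl16 protein, were not called (log2 fold changes 0.03 and 0.17, DESeq2 adjusted p = 0.957 and 0.426), though Adam17 was above every control in all 3 knockouts. Of the 5 genes listed for ligand processing, DESeq2 and edgeR called 0, with 4 at an unadjusted p under 0.05 in each. Adam17, Mmp2 and Mmp9 were higher with groups that did not overlap, and Dpp4 was lower. Over all genes, 9.03% (DESeq2) and 9.48% (edgeR) were under that p, and 15.4% of genes fitted had groups that did not overlap.

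Cxcl16, the other ligand with a membrane anchor and a mucin-like stalk, attracts CXCR6-bearing T cells and binds oxidised lipoprotein. It was at 1030, 1005 and 813 normalized counts in controls and 977, 881 and 1025 in knockouts. The groups overlapped throughout, and the interval of the difference ran from -15.3% to 20.9% (DESeq2 adjusted p = 0.986). Cxcl16 (chromosome 11, 70453983 to 70459984) shares 552 exon bases with Zmynd15, which is read from the other strand. The strand setting of the counting is not given in the sources used here, which leaves this count uncertain. Cxcr6 itself held between 0 and 8.49 normalized counts.

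Of the constitutive CXC ligands, none was called. Cxcl12, which retains CXCR4-bearing cells near stromal and endothelial cells, was at 1952, 2611 and 1693 normalized counts in controls and at 1706, 1871 and 1676 in knockouts. Control replicates 1 and 2 lay above every knockout library, while control replicate 3 lay among them. The log2 fold change was -0.25 ± 0.15 (SE, DESeq2 adjusted p = 0.546), with an interval from -31.3% to 2.61%. Without control replicate 2 the log2 fold change was -0.058. Of its receptors, Cxcr4 had control and knockout means of 427 ± 87.2 and 425 ± 18.6 normalized counts, and the scavenging receptor Ackr3 847 ± 81.5 and 808 ± 195 (SD, n = 3 each). Neither was called (DESeq2 adjusted p = 0.996 and 0.959).

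Cxcl14, an epithelial and stromal chemokine, had a fitted change of the opposite sign. Controls held 139, 167 and 210 normalized counts and knockouts 302, 200 and 289. Knockout replicate 2 lay below control replicate 3, and the other 2 knockout libraries were above every control. The log2 fold change was 0.62 ± 0.25 (SE) and the adjusted p 0.205 in DESeq2, with an interval, not adjusted for the number of genes, from 10.02% to 115%. Without control replicate 3 it passed, at 0.79 (adjusted p = 0.0471). The fibroblast and duct marker sums given above were also higher in knockouts, and their part in Cxcl14 was not tested.

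**Figure D4:**
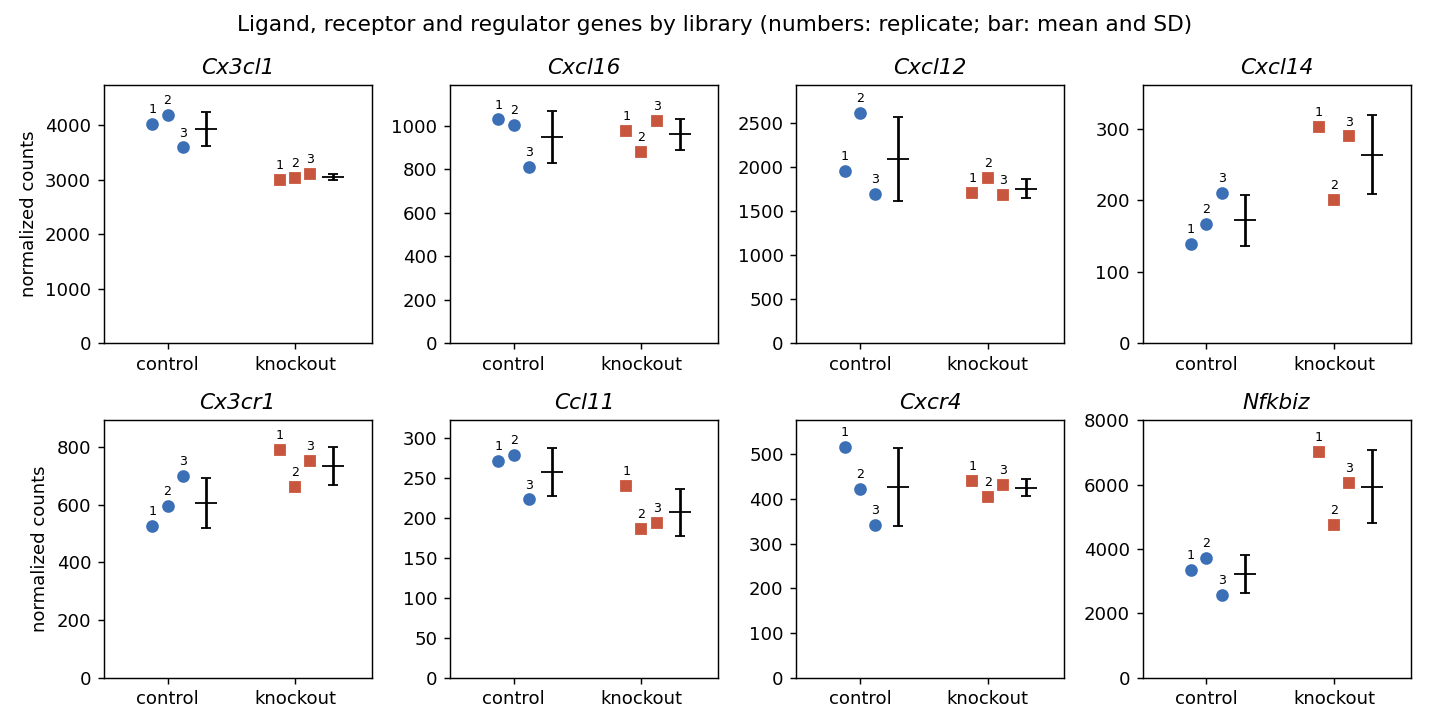
Normalized counts of 5 ligands (Cx3cl1, Cxcl16, Cxcl12, Cxcl14, Ccl11), 2 receptors (Cx3cr1, Cxcr4) and the NF-kappaB regulator Nfkbiz in each library, with replicate numbers, and the mean and SD of each group. The groups of Cx3cl1 and Nfkbiz do not overlap, and those of the other genes shown do.

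Cxcl13, which draws B cells to lymphoid follicles, had 1 library far above the others. Control replicate 3 held 261 normalized counts, control replicates 1 and 2 held 25.8 and 26.9, and knockout replicates 1 to 3 held 11.3, 24.8 and 0. The knockout values were all below the controls, though knockout replicate 2 nearly met control replicate 1. The log2 fold change of -3.12 ± 1.70 was not called (SE, DESeq2 adjusted p = 0.493), and without control replicate 3 it was -1.13. Of the 11 members with a mean of at least 50 normalized counts, Cx3cl1 and Cxcl13 had groups that did not overlap, both lower in knockouts, against 18.0% of all genes at that level in either direction and 8.54% lower. Cxcl13 reached that mean only through control replicate 3, so the count is a description and supports nothing about the members. Of the lymphocyte markers summed above, 0 of 8 were called by DESeq2 or edgeR and 4 were at an unadjusted p under 0.05 in each. Estimates were lower for 6 of the 8 and higher for Cd4 and Nkg7. The B-cell gene Ms4a1 held 13.4 to 23.3 normalized counts in controls and 0 to 2.00 in knockouts, and the T-cell gene Cd3e 6.36 to 26.9 and 0 to 5.67, both too low for an adjusted p. Cxcr5, the receptor of the Cxcl13 protein, held 0 to 13.9. Their part in the Cxcl13 values was not tested.

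Of the CC ligands of epithelia, none was called. Ccl28, made by mucosal and glandular epithelium and recognised by CCR10 and CCR3, held 1738, 1926 and 1571 normalized counts in controls and 2391, 1720 and 5406 in knockouts. Knockout replicate 3 was 3.14-fold above knockout replicate 2, which itself lay within the control range. The difference was not called (log2 fold change 0.86 ± 0.52 SE, DESeq2 adjusted p = 0.573), and the fitted value became 0.24 without that library. Its interval over all libraries ran from -10.5% to 269%. Duct markers were 1.24 times the control mean in knockout replicate 3, and 1.20 and 1.09 times in the other 2 knockouts. Acinar markers were lowest of the knockouts in replicate 3, at 1.86 times the control mean against 2.06 and 2.66 times. The part of either in the Ccl28 values was not tested.

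Ccl27a, best known as a skin chemokine for CCR10-bearing T cells, had the widest spread of the 8 leading members within the control and the knockout libraries. Controls held 324, 700 and 23.3 normalized counts and knockouts 34.0, 57.8 and 628. Each genotype therefore contained libraries above 300 and libraries below 60, and the within-group span was 30.0-fold and 18.5-fold. The fitted log2 value, -0.54 ± 1.52 (SE, DESeq2 adjusted p = 0.961), had an interval from -3.52 to 2.44, and it was 0.46 without control replicate 2. Near-identical copies of Ccl27a exist: Ccl27b had 1 count in all and 2 entries named Ccl27 on unplaced scaffolds had 0, so reads may have been shared or dropped between copies and the count is uncertain. Ccl25, an intestinal and thymic ligand of CCR9, was at 308 ± 56.5 and 294 ± 44.9 (SD, n = 3 each), a count made uncertain by 204 exon bases shared with Elavl1 on the other strand, and Ccl20 had 4 counts in all. Ccr10 held 0 to 14.4 normalized counts.

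**Figure D5:**
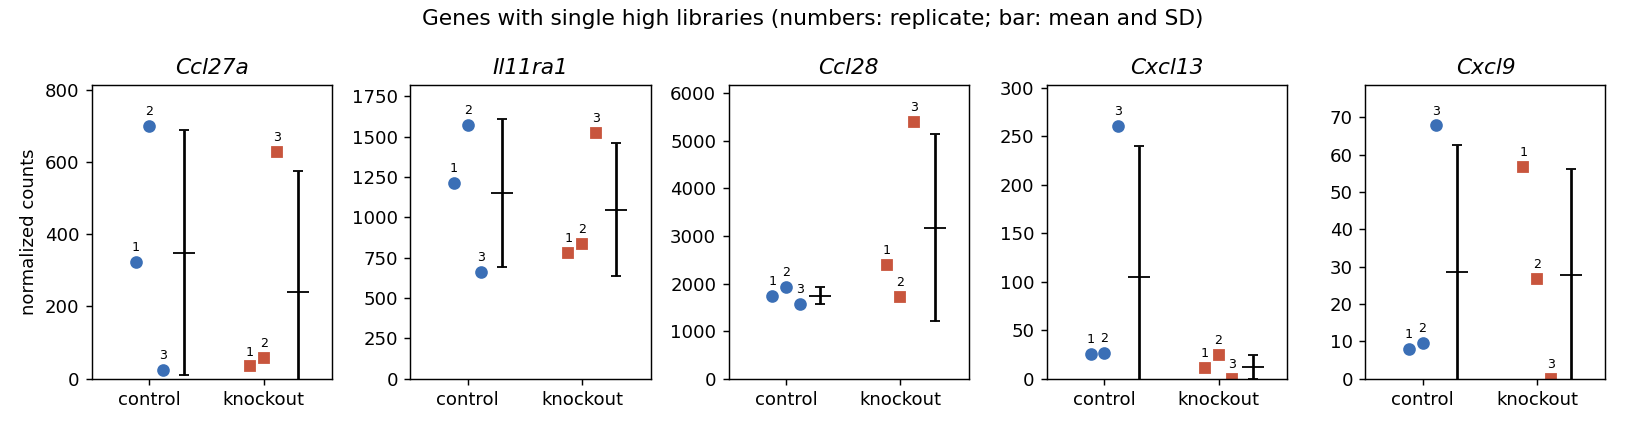
Normalized counts in each library, with replicate numbers and the group mean and SD (bars cut at 0), for Ccl27a, Ccl28, Cxcl13, Cxcl9 and Il11ra1, the gene that adjoins Ccl27a. Ccl27a and Il11ra1 are high in the same 3 libraries, Ccl28 in knockout replicate 3 and Cxcl13 in control replicate 3.

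Among CC ligands of myeloid and granulocyte traffic, none was called. Ccl11, an eotaxin made by stromal cells that draws eosinophils through CCR3, held 271, 278 and 223 normalized counts in controls and 240, 186 and 194 in knockouts. Knockout replicate 1 lay above control replicate 3, and the log2 fold change was -0.32 ± 0.20 (SE, DESeq2 adjusted p = 0.61) with an interval from -39.2% to 5.82%. The part of the fibroblast marker levels given above in these values was not tested. Ccl6, a mouse myeloid chemokine acting on CCR1, held 105, 109 and 112 in controls and 134, 103 and 124 in knockouts, and the antisense gene E230016K23Rik overlaps it. It was not called (log2 fold change 0.14, DESeq2 adjusted p = 0.931). Its related neighbour Ccl9 held 93.2, 132 and 99.7 against 206, 84.6 and 141, with knockout replicate 1 highest.

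Of the other ligands in the cluster of Ccl6 and Ccl9, Ccl3 ran from 23.0 to 45.3, Ccl4 from 4.13 to 26.9 and Ccl5 from 15.97 to 51.0 normalized counts over the 6 libraries, with overlapping groups in all 3. Ccl2, which recruits monocytes through CCR2, held 13.9, 19.2 and 10.6 in controls and 25.5, 20.6 and 37.9 in knockouts. Every knockout library was above every control, but at these counts the interval ran from -15.4% to 336% (DESeq2 adjusted p = 0.61). Groups that did not overlap were found for 3 of the 27 members, Ccl2 included, and for 15.4% of all genes fitted. Ccl12, a mouse ligand of CCR2, had 0 counts in all controls and 4, 0 and 18 counts in knockout replicates 1 to 3, and Ccl7 ran from 0 to 11.97 normalized counts. Ccr2, the receptor of these ligands, had means of 107 ± 27.5 and 154 ± 58.5 (SD, n = 3 each, DESeq2 adjusted p = 0.644). Ccl22 and Ccl17, dendritic-cell ligands of CCR4, ran from 13.9 to 90.2 and from 0 to 8.25. Ccl19, a ligand of CCR7, ran from 0 to 19.96, and the 6 Ccl21 entries, which are near-identical copies, had 0 counts, so reads shared between copies may have been dropped.

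The ligands most tied to acute inflammation were near the lower end. Cxcl1 and Cxcl2, which attract neutrophils through CXCR2, ran from 4.24 to 43.6 and from 3.84 to 37.9 normalized counts, and Cxcl5 from 0 to 17.0. Cxcl9, Cxcl10 and Cxcl11, induced by interferons and read by CXCR3, ran from 0 to 67.9, from 12.4 to 47.2 and from 0 to 10.6. Cxcl11 is annotated as a polymorphic pseudogene, so its counts do not show that a working ligand is made. In each of these 6 genes the groups overlapped, and none was called. Cxcl10 and Cxcl11 share 133 and 1582 exon bases with genes of the other strand, so their counts are uncertain too. Control replicate 3 held the highest Cxcl9 count and the lowest Cxcl1 count of the 6 libraries.

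Promoter stretches are shown for the members whose promoter held the NF-kappaB consensus, the element through which inflammatory cytokines act. Of the 27 members, 18 were found in the RefSeq promoter table (GRCm38.p6). The 250 bases before each start were searched on both strands, and matches are in capitals.
Cxcl1, chr5:90891169-90891189, plus strand: actccGGGAATTTCCCtggcc
Cxcl2, chr5:90903797-90903817, plus strand: gctcaGGGAATTTCCCtggtc
Ccl9, chr11:83578657-83578676, minus strand: actttGGAAAGCCCCaagtc
Cxcl10, chr5:92348978-92349053, minus strand: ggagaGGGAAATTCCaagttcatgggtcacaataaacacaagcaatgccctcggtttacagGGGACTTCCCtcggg
In Cxcl1 and Cxcl2 the capitals are 2 matches that overlap, in the same letters, and Cxcl10 held 2 matches further apart. These 4 genes gave 4 of 21 member promoters (19.0%), against 3.90% of all 32851 in the table. A narrower pattern, tried first, matched 3 of 21 and 1.41%. A KLF-type motif, CCNCACCC, was found in 14.3% of member promoters, those of Ccl25 and Ccl27a, and in 14.9% of all. Cx3cl1 had a match to neither motif. These are letter matches and do not show binding.

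Of the other genes of the pathway, 56 were listed (platelet ligands, receptors, proteases, inducing cytokines and their receptors, NF-kappaB and interferon factors), 50 were fitted and 38 were given an adjusted p. One rose, 0 fell, and edgeR called 0 with 12 at an unadjusted p under 0.05, as many as in DESeq2, beside shares of 9.48% (edgeR) and 9.03% (DESeq2) over all genes. Nfkbiz, which encodes an inducible nuclear IkappaB protein that modulates NF-kappaB target genes, was the one. It held 3349, 3714 and 2569 normalized counts in controls and 7004, 4750 and 6039 in knockouts, with all knockouts above all controls. The log2 fold change was 0.89 ± 0.15 (SE, DESeq2 adjusted p = 3.66e-06), and the edgeR adjusted p was 0.139. The other 11 of 12 NF-kappaB genes were not called. With Nfkbiz, 4 of the 12 were at an unadjusted p under 0.05 in DESeq2 and in edgeR, the other 3 being Nfkb2, Nfkbia and Birc3 with log2 fold changes of 0.30, 0.25 and 0.28. Nfkb1 and Rela, which encode DNA-binding subunits as Nfkb2 does, had values of 0.06 and 0.01. Estimates were higher for 8 of the 12 and lower for 4, namely Tnfaip3 (-0.26), Nfkbib (-0.13), Relb (-0.05) and Nfkbie (-0.04). Nfkbib was below every control in all knockouts.

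DESeq2 and edgeR called none of the 4 interferon factors, with log2 fold changes from 0.01 for Irf1 to 0.37 for Irf7. Stat2 and Irf7 were at an unadjusted p under 0.05 in each, with all knockouts above all controls. Groups that did not overlap were found for 15.4% of all genes fitted. Stat2 had a log2 fold change of 0.26 (DESeq2 adjusted p = 0.072). Il1r1, the interleukin-1 receptor, had the highest level per kilobase of the cytokine group, and was at 97353 ± 19902 and 85557 ± 5292 normalized counts (SD, n = 3 each, DESeq2 adjusted p = 0.634). The cytokine genes themselves were scarce, with Tnf at 1.92 to 15.97. Il1b held 57.3 to 132 normalized counts in controls and 30.9 to 60.4 in knockouts, with groups that overlapped. Its log2 fold change was -0.96 and it was not called (DESeq2 adjusted p = 0.337). It was the 1 gene of the 9 fitted in the cytokine list at an unadjusted p under 0.05, in DESeq2 and in edgeR. Dpp4, a protease that trims the amino terminus of many chemokines, was at 10586 ± 1393 and 8821 ± 827 (DESeq2 adjusted p = 0.254). Pf4, a platelet CXC ligand outside the symbol rule, held 17.0 to 21.8 in controls and 22.7 to 37.1 in knockouts (DESeq2 adjusted p = 0.767).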

How the data were processed

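Polyadenylated RNA of isolated islets was sequenced. The authors deposited 1 table of read counts per gene, without normalization, for all 6 libraries. FastQC, STAR, featureCounts, DESeq2 and the build mm10 are named in the submitters' processing notes, and trimming with cutadapt in the name of the table. Strand and multi-mapping settings are not given in the sources used here. All 55536 identifiers and symbols match GENCODE M21 (GRCm38), which gave coordinates and exon lengths.

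DESeq2 1.42.0 (R 4.3.3), the test named in the design text, was run on genes with at least 10 counts in total, with median-of-ratios size factors, genotype as the only term and Benjamini-Hochberg adjustment over all genes (threshold 0.05). Normalized counts are counts divided by size factors. Members and lists were chosen with earlier results of these data known, and some genes of the lists are not reported here. Given in full are members past the threshold, members with a mean of at least 50 whose groups do not overlap, and the 8 highest per kilobase. Of other pathway genes, those called and the one with the highest mean normalized count in each list are named, and further genes were named after their values were seen. Alternatives were edgeR 4.0.16 (quasi-likelihood, TMM), TMM factors, other filters, an adjusted p of 0.1, a replicate block, each library left out and, chosen after seeing the data, halved counts. The fits were tested on simulated data. Within-group pairs of libraries differed by 40.0 to 120 times their degrees of freedom (chi-square over 15820 genes), more than counting noise alone gives. The labels do not say whether libraries come from separate mice, so p-values measure the spread between libraries, which may be technical. No batch is labelled.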

Additional observations from a re-analysis of the deposited data

How the results depend on the processing

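The number of members called was 1 in DESeq2, 0 in edgeR and between 0 (without knockout replicate 1) and 2 (without control replicate 3, Cx3cl1 and Cxcl14) when a library was left out, with 1 member at an unadjusted p under 0.05 in the first of these fits. Other pathway genes called numbered 1, against 0 in edgeR, 2 at an adjusted p of 0.1 and 1 to 5 when a library was left out (5 without control replicate 3). Over all genes the count was 389, against 29 in edgeR (24 higher and 5 lower, in place of 272 and 117), 614 at an adjusted p of 0.1 and 153 to 952 when a library was left out, with 153 when knockout replicate 1 and 952 when control replicate 3 was omitted. Higher genes were thus 24 of 29 in edgeR. Cx3cl1 ran from -0.43 to -0.32 on the log2 scale when a library was left out and stayed at -0.37 otherwise, and its adjusted p over 14 alternatives ran from 4.39e-08 to 0.172. Cxcl14 ran from 0.49 to 0.79, Cxcl12 from -0.38 to -0.058, Ccl28 from 0.24 to 1.16, Cxcl13 from -4.20 to -1.13 and Nfkbiz from 0.75 to 1.02 in the leave-one-out fits. Ccl27a, from -2.93 to 0.46, and Cxcl16, from -0.082 to 0.079, changed sign there, Ccl27a without control replicate 2 and Cxcl16 without control replicate 3 (-0.082) or knockout replicate 3 (-0.032), with neither called. Among 140 single-gene results the sign and the call were the same in 133. In 3 the call was lost, in 1 a call was gained and in 3 the sign turned. All 50 summed levels under TMM and total-count scaling moved by less than the spread between replicates. With the replicate number as a block, 1 member and 1 pathway gene were called, 405 genes in all, and the Cx3cl1 log2 fold change was -0.37 (adjusted p = 0.0107). Same-numbered libraries did not deviate together (correlations of -0.059 to 0.010), so the pairing is by number only. The cause was not tested. Depth limits the 16 members under a mean of 50 normalized counts, where 9 were given no adjusted p.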

Other observations

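A pair of genes near Ccl27a were high in the same libraries as Ccl27a, over a narrower span (2.37-fold and 1.57-fold from lowest to highest library). Il11ra1, which encodes an interleukin-11 receptor chain and meets Ccl27a tail to tail with 8 shared exon bases (chromosome 4, 41699989 to 41769474, plus strand), held 1214, 1570 and 663 normalized counts in the control libraries, in replicate order, and 781, 836 and 1523 in the knockout ones. Galt, a galactose metabolism gene (41755228 to 41758695), lies within the annotated span of Il11ra1 on the same strand, so the pair are not separate loci. It held 1081, 1220 and 779 against 840, 903 and 1163. Both had the same 3 highest libraries as Ccl27a (control replicates 1 and 2 and knockout replicate 3). Cntfr, Rpp25l and Dctn3, also within 100 kb of Ccl27a, did not. These genes were chosen after the values of Ccl27a were seen, the pattern crosses the genotypes, and its origin was not tested.

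Near Ccl28, whose highest library was knockout replicate 3, Tmem267 (chromosome 13, 119488039 to 119611059) was also highest there, at 528 normalized counts, against 273 to 474 in the other 5 libraries. Nim1k, on the other side of Ccl28, was highest there too, at 560 against 426 to 532. Hmgcs1, which lies between Ccl28 and Nim1k, held 6681 in that library and 6030 to 10584 in the others. These neighbours were chosen after the values of Ccl28 were seen, and the origin of the pattern was not tested. Of the 18 member entries under the minimum of 10 counts, 12 had 0 counts in every library and 6 had between 1 and 8 in total, Ccl8 and Xcl1 with 8 each.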
